A study of Mus musculus with 8 samples.

Results

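The 43 genes described here encode the contractile machinery of heart muscle: the thick and thin filaments of the sarcomere, the Z-disc that anchors them, the cytoskeleton around it, and the enzymes and chaperones that assemble and turn it over. The members are a list of named genes, drawn up with earlier results of these data known, and all 43 were found by Ensembl identifier among the 53465 genes of the table. All 43 were also among the 15388 genes that passed the filter on low counts. RNA came from heart ventricles of mouse embryos at embryonic day (E) 15.5, in 4 libraries labelled WT and 4 labelled Nrg-1flox;Cdh5-CreERT2, called WT and Flox here. In the latter line a tamoxifen-inducible Cre recombinase, driven by the endothelial gene Cdh5, is meant to remove floxed sequence of Nrg-1, which encodes the growth factor neuregulin-1. The Cre is therefore directed to endothelial and endocardial cells and not to the cardiomyocytes that make the sarcomere. Each replicate was described as 1 ventricle, and Y-linked genes, given below, were found in all 8 libraries. Whether the WT embryos carried Cre or a floxed allele, and whether or when they received tamoxifen, was not given in the sources used here.

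A sarcomere is built from myosin thick filaments that slide past actin thin filaments, with titin spanning from the Z-disc to the M-band. Tropomyosin and the troponin complex lie along actin and make its binding of myosin depend on calcium. Before birth the mouse ventricle uses fetal isoforms of several of these proteins, among them the β-myosin heavy chain Myh7 and the slow skeletal troponin I Tnni1. These give way to the α-myosin heavy chain Myh6 and the cardiac troponin I Tnni3 as the heart matures.

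Library totals ranged from 16761763 to 24144272 expected counts, and no pair of libraries was a duplicate. The targeted gene Nrg1 measured 5.46, 4.64, 4.08 and 5.31 CPM (counts scaled to a common library size) in WT libraries 1 to 4, and 6.82, 6.33, 6.16 and 5.36 in the libraries labelled Flox. Its log2 difference, Flox minus WT, was 0.34 (SE 0.12, adjusted p = 0.311 by edgeR's quasi-likelihood test with Benjamini-Hochberg adjustment), and the mean was not lower in the libraries labelled Flox than in WT. Counts per gene do not show whether the floxed part was missing from these transcripts. Of the cardiomyocyte genes outside the sarcomere, Ryr2, Pln and the 6 others were all present, and their summed level was 7798 to 8547 CPM in the WT and 7831 to 8978 CPM in Flox libraries. Of these, 7 of 8 log2 fold changes were above 0, and Nkx2-5, a cardiac transcription factor, was higher without overlap (0.21, SE 0.0334, adjusted p = 0.0194 by edgeR, below 0.05 in 16 of 21 alternative fits). A correction for GC content and gene length lowered the Nkx2-5 difference to 0.11 (adjusted p = 0.119 by edgeR). With the level of Y-linked genes as a covariate it was 0.22 (adjusted p = 0.0897 by edgeR). The skeletal muscle list summed to 2.94 to 5.18 CPM over the 8 libraries, with Myod1 and Pax7 listed at 0 in every library and Myog between 0.174 and 0.703 CPM. Among other cells of the ventricle, 8 endothelial genes summed to 1113 to 1135 CPM in the WT and 1038 to 1105 CPM in Flox libraries, and 8 smooth muscle genes to 1830.4 to 1927 and 1938 to 2023 CPM. These sums did not overlap, although no gene of either list passed the test by itself. The smooth muscle sum was mostly Acta2, a smooth muscle actin that fetal heart muscle also expresses (means 1308 and 1423 CPM), and 5 of the 8 log2 fold changes of that list were below 0 (median -0.041). The 6 epicardial genes summed to 140.1 to 153 CPM in the WT and 151 to 168 CPM in Flox libraries, and 8 fibroblast genes to 5499 to 6492 and 5306 to 6425 CPM. Erythroid genes ranged more widely, from 4294 to 9395 CPM in the WT and from 5876 to 10010.2 CPM in Flox libraries. Macrophage genes summed to 67.4 to 95 CPM in the WT and 77.3 to 107 CPM in Flox libraries. The part of any of these lists in the values below was not tested. In RNA of whole ventricle, fewer cardiomyocytes and less RNA per cardiomyocyte cannot be told apart.

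The 3 myosin heavy chain genes described below each carry a microRNA in an intron, on the same strand as the gene, and these are shown because the heavy chains carry the isoform comparison below. They are written 5′ to 3′ from RefSeq (GRCm38.p6), with the seed, bases 2 to 8, in capitals. mmu-miR-208a-3p lies in Myh6 at chr14:54949072-54949093 on the minus strand, mmu-miR-208b-3p in Myh7 at chr14:54975710-54975731 on the minus strand, and mmu-miR-499-5p in Myh7b at chr2:155622893-155622913 on the plus strand. None has a base in an annotated exon of its host.
mmu-miR-208a-3p: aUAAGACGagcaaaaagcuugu
mmu-miR-208b-3p: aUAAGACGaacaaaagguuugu
mmu-miR-499-5p: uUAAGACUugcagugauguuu
The seed UAAGACG was held by 2 of the 1738 mature mouse miRNAs in the RefSeq table, those of Myh6 and Myh7. The seed UAAGACU was held by miR-499-5p alone. Mature miRNAs have no poly(A) tail and were not measured in these poly(A)-selected libraries, so only the host mRNAs are reported.

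Few sarcomere genes differed between the libraries labelled Flox and WT. Of the 43 genes, 1 was higher at a false discovery rate (FDR) below 0.05 by edgeR's quasi-likelihood test and none was lower. The gene that rose was Tcap, which encodes telethonin, the Z-disc cap of titin. That is 2.33% of the members, beside 0.526% of all 15388 genes tested (0.312% higher and 0.214% lower). At an unadjusted p below 0.05 there were 5 higher and 3 lower (5.13% and 5.41% of all tested genes), and DESeq2 called 3 higher and 1 lower at the same FDR, with 1.29% of all genes called in either direction. The median log2 fold change of the members was 0.03, and for all tested genes it was -0.001. In 36 of the 43 the log2 fold change was smaller than 0.1 in either direction, a larger share than the 10325 of all 15388 genes tested. For 39 of them (90.7%) the 95% interval lay within 1.25-fold in both directions, as it did for 66.0% of all tested genes. The exceptions were Mybphl, Ttn, Myom2 and Myh7b, so for the other 39 a difference larger than 1.25-fold lay outside the interval. The part of the members' expression level in these shares was not tested.

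**Figure D1:**
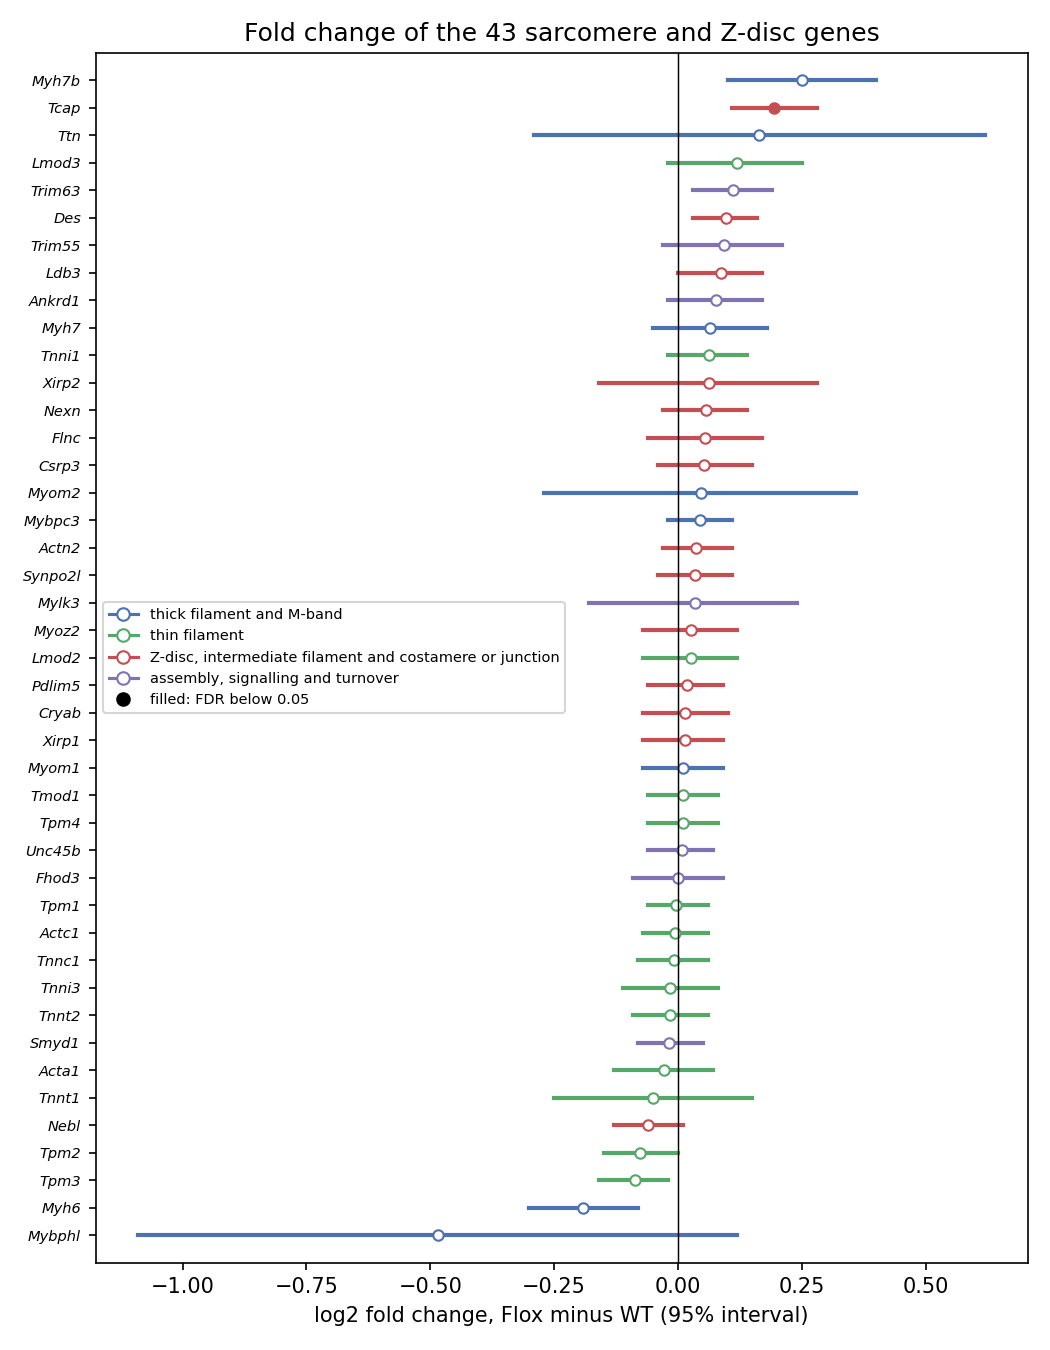
Log2 fold change (Flox minus WT, horizontal axis) of each of the 43 genes, in order of size, with 95% intervals from edgeR and colours for the 4 role groups. Only Tcap (0.19) is filled, for FDR below 0.05, and Mybphl (-0.48) and Ttn (0.16) have the widest intervals.

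The members made up 6.13% to 6.63% of all expected counts in WT and 6.12% to 6.70% in Flox libraries. Myh7 alone took 1.55% to 1.90%. Per exonic kilobase, Actc1 had the highest level (7042 CPM per kb), followed by Myh7 (2059), the cardiac troponin C gene Tnnc1 (1534), Mybpc3 (723) and Tnnt2 (718). Xirp2 had the lowest (0.56 CPM per kb). These levels divide by the union of all annotated exons, so a gene with long or rarely used exons reads low on this scale.

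**Figure D2:**
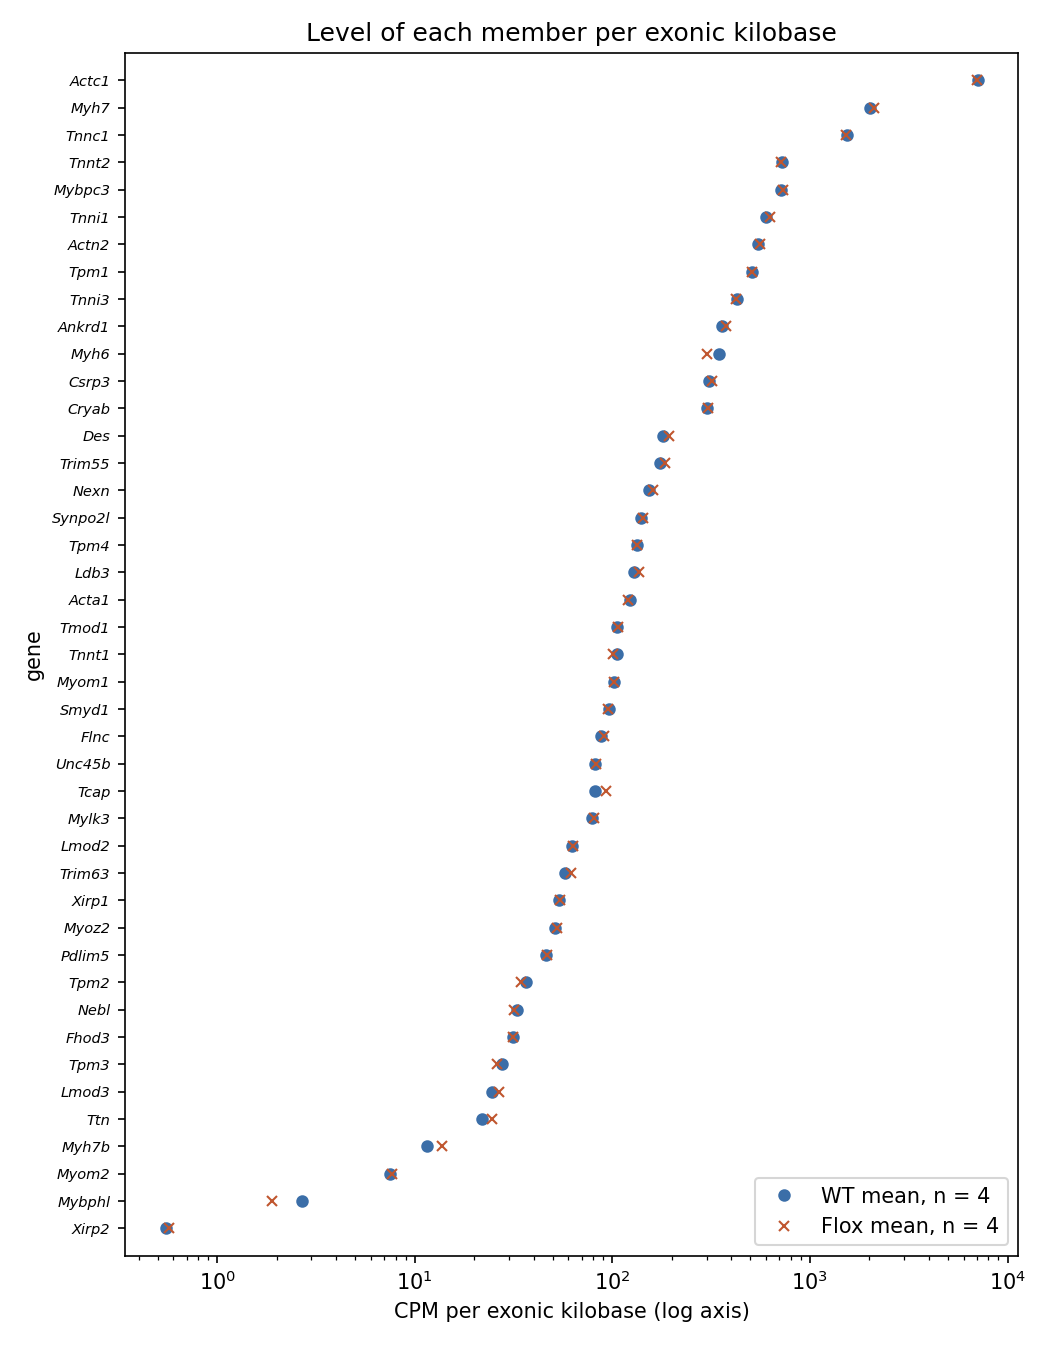
Mean level of each member in CPM per exonic kilobase (log axis), as a circle for the 4 WT and a cross for the 4 Flox libraries. Actc1 stands at the top and Xirp2 at the bottom, and circle and cross nearly coincide for most genes.

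Among the 8 thick filament and M-band genes none passed the test, and 6 of 8 log2 fold changes were above 0 (median 0.05). Myh7, the β-myosin heavy chain that dominates the fetal ventricle, measured 18059, 15441, 18434 and 17437 CPM in WT libraries 1 to 4, and 18681, 18257, 19036 and 16556 CPM in Flox libraries 1 to 4. The lowest value was WT library 2 and the groups overlapped. The means were 17343 ± 1333 and 18132 ± 1099 CPM (SD, n = 4 each), a log2 fold change of 0.06 (SE 0.0514, adjusted p = 0.729 by edgeR). Leaving out 1 library moved it between 0.01 (without WT library 2) and 0.11 (without Flox library 4).

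Myh6, the α-myosin heavy chain of the adult mouse heart, had lower values in most Flox libraries. It measured 2299.6, 2108, 2563 and 2349 CPM in the WT and 2010.3, 2114, 2106 and 1932 CPM in Flox libraries. Every Flox library but library 2 lay below every WT library, and Flox library 2 was only just above WT library 2. The means were 2329.7 ± 187 and 2041 ± 86.5 CPM (SD, n = 4 each), a log2 fold change of -0.19 (SE 0.0499, 95% interval -0.30 to -0.08) with an adjusted p of 0.134 by edgeR's quasi-likelihood test. The difference did not pass the test across all genes. DESeq2 on the same counts, the fit without a filter on low counts and the fit without WT library 2 and Flox library 4 placed it below an FDR of 0.05. Myh6 and Myh7 stand side by side on the minus strand of chromosome 14 (GRCm38, chr14:54941921-54966927 and chr14:54970684-54994626). The 2 genes are near copies. Of the 60-base words of the longest Myh6 transcript, 19.1% also occur in Myh7, and of those of the longest Myh7 transcript 18.7% occur in Myh6. Reads from these stretches were shared out by RSEM's estimate. Annotated antisense RNAs, Mhrt among them, cover 13.3% of the exonic bases of Myh7.

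Myh7b, the myosin heavy chain gene that hosts miR-499, measured 82.6, 73.3, 81.0 and 70.7 CPM in the WT and 95.2, 89.7, 101 and 79.2 CPM in Flox libraries. Flox libraries 1 to 3 were above every WT library, and Flox library 4 lay within the WT range. Its means were 76.9 ± 5.75 and 91.3 ± 9.25 CPM (SD, n = 4 each), with a log2 fold change of 0.25 (SE 0.0674, 95% interval 0.10 to 0.40) and an adjusted p of 0.144 by edgeR. This was the largest positive log2 fold change among the 43, and it did not pass the test. It was below an FDR of 0.05 in 5 of 21 alternative fits: without a filter, with the likelihood ratio test, with DESeq2, with the replicate number as a block (adjusted p = 0.0158 by edgeR) and without Flox library 4.

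**Figure D3:**
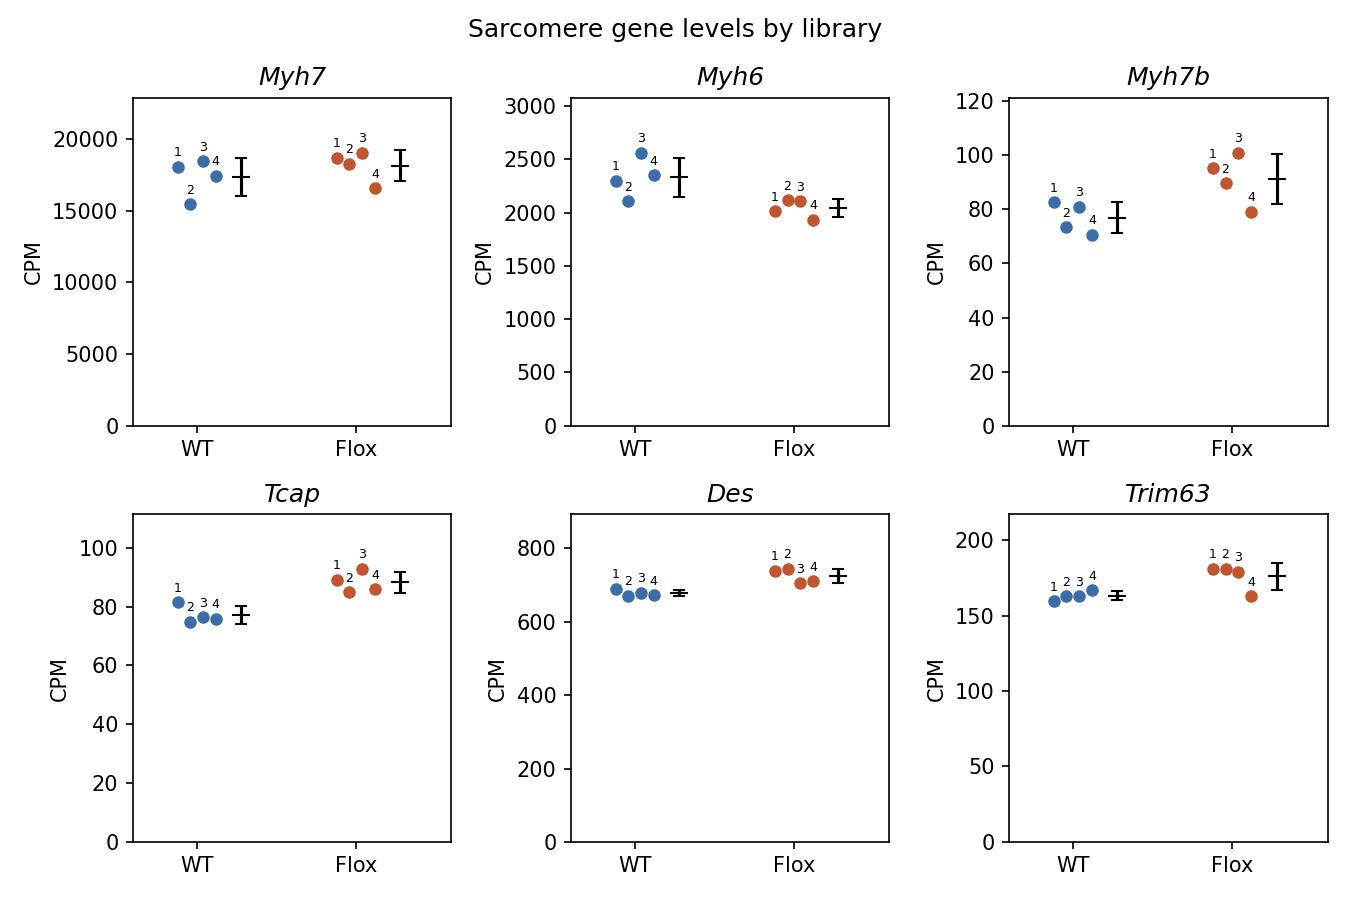
Level in CPM (vertical axes from 0) of Myh7, Myh6, Myh7b, Tcap, Des and Trim63 in each of the 4 WT and 4 Flox libraries, numbered by replicate, with a bar for the mean and its SD. The groups are apart for Tcap and Des and overlap for the other 4 genes.

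Mybphl, a relative of myosin binding protein C known mainly from atrial and conduction cells, was scarce, at 1.76, 3.49, 4.39 and 4.04 CPM in the WT and 1.92, 3.69, 2.01 and 2.06 CPM in Flox libraries. WT library 1 was as low as 3 of the Flox libraries, and Flox library 2 was as high as WT. Its log2 fold change of -0.48 (SE 0.278, adjusted p = 0.593 by edgeR) was therefore not larger than the spread within groups. Leaving out 1 library moved it between -0.34 (without WT library 3) and -0.78 (without Flox library 2). The 4 libraries with the most Mybphl were also the 4 with the most Sln, the atrial sarcolipin gene, which ranged from 3.74 to 10.5 CPM, and the 4 with the most Myl7, an atrial myosin light chain. Of the other atrial markers, Dkk3, Myl4 and Stard10 shared 3 of their 4 highest libraries with Mybphl, and Nr2f1, Nppa and Nr2f2 shared 2 of 4, the number that unrelated genes would share on average. All 8 atrial markers had log2 fold changes below 0 and none passed the test (median -0.185). Their sum ranged from 3234 to 4171 CPM in the WT and from 3158 to 3859 CPM in Flox libraries, and the part of atrial tissue in the Mybphl values was not tested.

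Ttn, which encodes the giant spring protein titin, was the most variable of the abundant members, at 3034, 1835, 2898 and 2498 CPM in the WT and 3648, 2814, 3432 and 1597 CPM in Flox libraries. WT library 2 and Flox library 4 were the lowest of their groups. The log2 fold change of 0.16 had an SE of 0.209 and an interval from -0.29 to 0.62 (adjusted p = 0.859 by edgeR), so a change of either sign could not be told from the spread. In the 393 genes with at least 15 kb of exonic sequence, the median deviation from each gene's mean over the libraries was lowest in WT library 2, at -0.0571 on the log2 scale. Within Flox it was lower in library 2 (-0.0228), where Ttn was not low, than in library 4 (-0.0104). How far this bears on Ttn was not tested. Myom2, an M-band protein, ranged from 50.4 to 77.4 CPM in the WT and from 53.6 to 89.4 CPM in Flox libraries (log2 fold change 0.05, SE 0.144). The more abundant M-band gene Myom1 hardly varied, with means of 1064 and 1072 CPM. Mybpc3, the cardiac myosin binding protein C, had means of 2965 and 3057 CPM (log2 fold change 0.04).

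None of the 14 thin filament genes passed the test, 9 of 14 log2 fold changes were below 0 (median -0.01), and all 14 had intervals within 1.25-fold. Actc1, the cardiac α-actin, measured 11283, 11408, 11579 and 11401 CPM in the WT and 11475, 12092, 10991 and 10924 CPM in Flox libraries. The WT values lay inside the range of the Flox values. Its means were 11418 ± 122 and 11371 ± 539.8 CPM (SD, n = 4 each), with a log2 fold change of -0.01 (SE 0.0285, adjusted p = 0.974 by edgeR). Acta1, the skeletal α-actin, measured 189, 185, 195 and 187 CPM in the WT and 183, 204, 175 and 178 CPM in Flox libraries, also with overlap. Its log2 fold change was -0.03 (SE 0.0462, adjusted p = 0.892 by edgeR), and -0.08 without Flox library 2.

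The pair of actins differed far more from each other than between the groups. The stretches just upstream of their RefSeq starts are shown because both hold a CArG box, the binding motif of serum response factor. That of Acta1 also holds the letters TATAAA and GGAATG. The 300-base window of Actc1, described below, also holds TATAAA, outside the printed stretch and not within the 250 bases before the start. The sequences are from RefSeq (GRCm38.p6), 5′ to 3′ on the strand of the gene, which is the minus strand for both. The motifs are in capitals, and GGAATG reads CATTCC because it lies on the other strand. The Acta1 stretch is chr8:123894776-123894905 and the Actc1 stretch is chr2:114052888-114053005. In the gene annotation Acta1 spans chr8:123891769-123894751 and Actc1 spans chr2:114047282-114053548, so the starts differ from those of RefSeq. The Actc1 stretch lies inside the annotated gene, in no annotated exon.
Acta1: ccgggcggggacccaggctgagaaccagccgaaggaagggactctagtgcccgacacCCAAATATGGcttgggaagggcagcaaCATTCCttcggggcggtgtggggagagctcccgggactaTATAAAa
Actc1: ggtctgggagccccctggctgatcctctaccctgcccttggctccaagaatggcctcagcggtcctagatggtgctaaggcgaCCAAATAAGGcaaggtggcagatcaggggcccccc
Promoter windows of 300 bases (250 before and 50 after the start) were given for 35 of the 43 members, 48 windows in all. With both strands searched, a CArG box was in 6 of the 48 (12.5%) and in 1.63% of all 32851 mouse windows. A MEF2 site was in 6 (12.5%, against 3.19%), TATAAA in 7 (14.6%, against 13.6%) and GGAATG, the core of the TEAD motif, in 14 (29.2%, against 14.7%). The MEF2 and TATAAA letters can overlap, and these matches describe letters in a window and not occupied sites.

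Tnni1, the fetal troponin I, measured 2247, 2150.4, 2144 and 2098 CPM in the WT and 2273, 2357, 2302 and 2093 CPM in Flox libraries. Flox libraries 1 to 3 were above every WT library, and Flox library 4 was the lowest of all 8. The log2 fold change was 0.06 (SE 0.0362, adjusted p = 0.593 by edgeR). Tnni3, the troponin I of the mature heart, measured 886, 879, 914 and 864 CPM in the WT and 906, 923, 882 and 790.2 CPM in Flox libraries. Again Flox library 4 was the lowest and the groups overlapped (log2 fold change -0.02, SE 0.0437, adjusted p = 0.943 by edgeR). The other subunits of the complex were as steady, with log2 fold changes of -0.02 for Tnnt2, the cardiac troponin T that binds tropomyosin, and -0.01 for Tnnc1, the calcium sensor. Tnnt1, the slow skeletal troponin T, varied more within WT (195 to 274 CPM) than between the groups (means 231 and 223 CPM).

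Of the tropomyosins, Tpm3 was the only thin filament gene whose groups did not overlap. It measured 166, 172, 166 and 168 CPM in the WT and 158, 153, 157 and 165 CPM in Flox libraries, all of them lower than in any WT library. The log2 fold change was -0.09 (SE 0.0323), and it did not pass the test (adjusted p = 0.352 by edgeR). For Tpm3, 15.8% of the 60-base words of its longest transcript are shared with Tpm3-rs7, a near copy, so part of its count is an estimate. Tpm2, the β-tropomyosin, measured 102, 106, 113 and 105 CPM in the WT and 99.0, 102, 101 and 102 CPM in Flox libraries. The highest Flox libraries reached the lowest WT library, so the groups overlapped, and the log2 fold change was -0.08 (SE 0.035, adjusted p = 0.472 by edgeR). Tpm1, the main tropomyosin of heart muscle, had means of 3319 and 3311 CPM, and Tpm4 of 292 and 294 CPM. Lmod2 and Lmod3, the leiomodins that lengthen thin filaments, had log2 fold changes of 0.03 and 0.12, and Tmod1, which caps their pointed ends, of 0.01. The exons of Tmod1 are overlapped over 32.6% of their bases by Tstd2 on the opposite strand.

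In the Z-disc, intermediate filament and junction group 13 of 14 log2 fold changes were above 0 (median 0.04), 1 passed the test, and all 14 intervals lay within 1.25-fold. Tcap (GRCm38, chr11:98383811-98384953) measured 81.4, 74.8, 76.3 and 75.8 CPM in the WT and 89.1, 84.9, 92.8 and 85.9 CPM in Flox libraries. Every Flox library was higher than every WT library. The means were 77.1 ± 2.94 and 88.2 ± 3.54 CPM (SD, n = 4 each), a rise of 14.4%. The log2 fold change was 0.19 (SE 0.0374, 95% interval 0.11 to 0.28) with an adjusted p of 0.0454 by edgeR's quasi-likelihood test. Its counts were whole in every library and it shares no 60-base word with another gene. The call was close to its threshold: over 21 alternative fits the log2 fold change ranged from 0.16 to 0.22 and the adjusted p from 0.00215 to 0.192, below 0.05 in 10 of them. The share of all genes called moved as well, to 1.57% with edgeR's likelihood ratio test, 1.15% without a filter, 0.604% with the replicate block, 0.37% with limma voom, 0.37% with the GC and length correction and 0.104% with the Y-linked covariate. With 1 library left out the difference in Tcap was 0.17 to 0.22 on the log2 scale. The call was lost when WT library 2, 3 or 4 or Flox library 1, 2 or 3 was left out (adjusted p 0.0601 to 0.157 by edgeR) and kept without WT library 1 (0.0374) or Flox library 4 (0.0411). The Y-linked genes summed to 115, 69.3, 122 and 171 CPM in the WT and 68.3, 42.9, 58.5 and 119.9 CPM in Flox libraries. Their mean was lower in Flox (72.4 ± 33.4 CPM) than in WT libraries (119 ± 41.7 CPM, SD, n = 4 each), with overlap. The Y-linked level and the group are therefore not independent here. With this level as a covariate Tcap had a log2 fold change of 0.20 and an adjusted p of 0.192 by edgeR.

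Des, which encodes desmin, the intermediate filament that ties Z-discs together, also had groups that did not overlap. It measured 689.9, 671, 679 and 672 CPM in the WT and 739, 744, 705 and 711 CPM in Flox libraries. The lowest Flox library was above the highest WT library. The log2 fold change was 0.10 (SE 0.0292) and did not pass the test (adjusted p = 0.218 by edgeR), whereas DESeq2 placed it below the threshold (adjusted p = 0.037). In all, 3 of the 43 members had groups without overlap (6.98%), Tcap and Des with higher and Tpm3 with lower values in Flox libraries. Over all tested genes this was the case for 6.05% (3.07% higher and 2.98% lower), so the share among the members was near the background.

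Ldb3, the PDZ and LIM protein also known as Cypher, measured 812, 761, 787 and 796 CPM in the WT and 863, 852, 858 and 775 CPM in Flox libraries. Flox library 4 was set apart from the other 3, which were above all of WT (log2 fold change 0.09, SE 0.0378, adjusted p = 0.446 by edgeR). Nebl, or nebulette, an actin-binding protein of the cardiac Z-disc, was the single gene of the group with a log2 fold change below 0. It measured 519, 493, 513 and 489 CPM in the WT and 487, 491, 483 and 470.4 CPM in Flox libraries, with overlap through WT library 4 (-0.06, SE 0.031, adjusted p = 0.54 by edgeR). Actn2, the α-actinin that cross-links actin at the Z-disc, had the highest level per kilobase of the group (551 CPM per kb). It measured 2025, 2003, 2154 and 2074 CPM in the WT and 2103, 2195, 2150.3 and 2019 CPM in Flox libraries, which overlapped (0.04, SE 0.0322, adjusted p = 0.768 by edgeR).

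The other 9 genes of the group had log2 fold changes between 0.01 and 0.06. They were the calcineurin-binding Myoz2 (0.03), the F-actin-binding Nexn (0.06), the LIM protein Csrp3 (0.05), the small heat shock protein Cryab (0.02), the filamin Flnc (0.05), the Xin repeat genes Xirp1 (0.01) and Xirp2 (0.06), Synpo2l (0.03) and Pdlim5 (0.02). Their mean levels ran from 6.57 CPM in WT for Xirp2 to 853 CPM in Flox for Csrp3. Cryab and Hspb2, its head-to-head neighbour on the opposite strand, overlap over part of the Cryab exons, so its count is less certain if strand was not used.

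Of the 7 genes of assembly, signalling and turnover none passed the test, and 6 log2 fold changes were above 0 (median 0.03). Trim63, the muscle ubiquitin ligase MuRF1, measured 159.5, 163, 163 and 167 CPM in the WT and 181, 181, 179 and 163 CPM in Flox libraries. Flox libraries 1 to 3 were higher than all of WT, and Flox library 4 was inside the WT range. The log2 fold change was 0.11 (SE 0.0381, adjusted p = 0.30 by edgeR). Ankrd1, a stress-responsive ankyrin repeat protein of the titin I-band, measured 1039.5, 946, 1079 and 1071 CPM in the WT and 1086, 1167, 1035 and 1070.4 CPM in Flox libraries. The groups overlapped (0.08, SE 0.0457, adjusted p = 0.612 by edgeR). Trim55, the relative of Trim63 known as MuRF2, had a log2 fold change of 0.09, and Mylk3, the cardiac myosin light chain kinase, of 0.03. The myosin chaperone Unc45b (0.01), the formin Fhod3 (0.00) and the methyltransferase Smyd1 (-0.02), which is needed for sarcomere assembly, differed by no more than 0.02 on the log2 scale.

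The 3 fetal to adult pairs were compared within each library as ratios of CPM per exonic kilobase, which scaling between libraries cannot alter. The Myh7 to Myh6 ratio was 6.13, 5.72, 5.61 and 5.80 in WT and 7.25, 6.74, 7.06 and 6.69 in Flox libraries. All 4 Flox ratios were above all 4 WT ratios. The means were 5.82 ± 0.223 and 6.93 ± 0.267 (SD, n = 4 each), and the log2 difference was 0.25 (SE 0.039), a ratio 1.19 times that of WT. The exact permutation test gave p = 0.0286, the smallest that 4 against 4 allows (two-sided, 70 arrangements), and 0.0857 after Benjamini-Hochberg adjustment over the 3 pairs. The difference therefore did not pass the adjusted test. With 4 against 4, a single fully separated pair cannot pass it, so this outcome does not speak against a difference. In these units Myh7 made up 85.3% ± 0.47 of both heavy chains in WT and 87.4% ± 0.422 in Flox libraries (SD, n = 4 each). Neither gene passed the test across all genes by itself, and the ratio combines a log2 fold change of 0.06 in Myh7 with one of -0.19 in Myh6.

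The Tnni1 to Tnni3 ratio was 1.45, 1.40, 1.34 and 1.39 in WT and 1.44, 1.46, 1.5 and 1.52 in Flox libraries. Only WT library 1 reached into the Flox range. The log2 difference was 0.08 (SE 0.029), with an exact permutation p of 0.0571 and an adjusted p of 0.0857 (two-sided). The Acta1 to Actc1 ratio was 0.0177, 0.0171, 0.0177 and 0.0172 in WT and 0.0168, 0.0178, 0.0167 and 0.0171 in Flox libraries. These overlapped throughout, with a log2 difference of -0.02 (SE 0.024, exact permutation p = 0.343). Thus no pair passed the adjusted test, which the Myh7 to Myh6 pair could not pass alone. The level of each ratio depends on the length used: with the longest transcript in place of the exon union the mean WT ratios were 7.31, 1.03 and 0.0168. The difference between the groups does not depend on it.

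**Figure D4:**
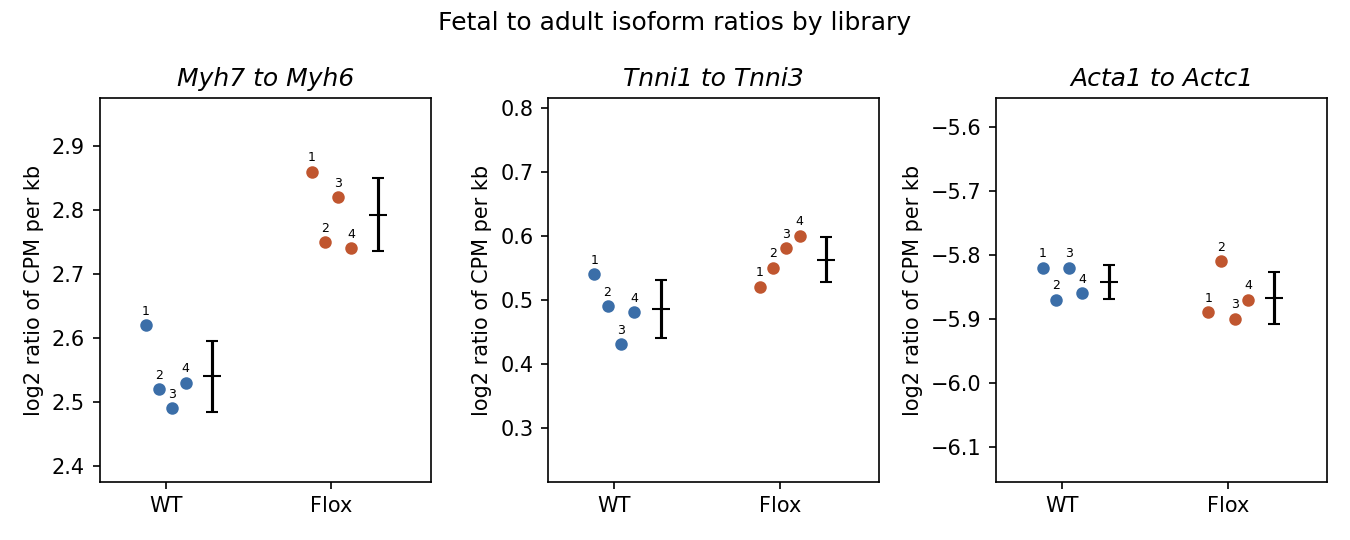
Log2 ratio of CPM per exonic kilobase for the 3 fetal to adult pairs in each library, numbered by replicate, with the mean and SD of 4 libraries per group. All panels span 0.6 log2 units and start at different levels. For Myh7 to Myh6 the 4 Flox libraries lie above the 4 WT libraries, and the other pairs overlap.

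Much of the variation among the members ran between libraries of the same group. Flox library 4 was the lowest of its group in 32 of the 43 genes (74.4%), where 29.3% of all tested genes had it lowest. WT library 2 was the lowest of its group in 27 (62.8%, against 27.4%). In 20 members (46.5%) both were lowest, as in 8.3% of all tested genes. Flox library 2 was the highest of its group in 26, and in 3812 of all 15388 tested genes. The summed level of the members was 65499, 60996, 66702 and 64186 CPM in the WT and 67365, 67568, 66929.6 and 60407 CPM in Flox libraries, so 1 library in each group fell short of the other 3. The group means were 64346 ± 2458 and 65567 ± 3451 CPM (SD, n = 4 each). The same pair of libraries was lowest in the cardiomyocyte genes outside the sarcomere, at 7798 CPM in WT library 2 and 7831 CPM in Flox library 4. Flox library 4 also had the highest erythroid (10010.2 CPM), macrophage (107), fibroblast (6425), endothelial (1105), epicardial (168), atrial (3859) and skeletal muscle (5.18) sums of its group. Its smooth muscle sum was the lowest of the group (1938 CPM). It had the fewest counts of the 8, and the lowest median deviation of genes under 2 kb, at -0.0388 on the log2 scale. WT library 2 differed from it, with the lowest fibroblast sum of its group (5499 CPM). Its erythroid (5053 CPM) and macrophage (90.8 CPM) sums were not the highest of WT. The part of these differences in the members' values was not tested.

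Log2 fold changes above 0 were found for 30 of the 43 members (69.8%), beside 49.4% of all tested genes. Leaving out 1 library gave 25 (58.1%, without Flox library 2 or without WT library 2) to 34 (79.1%, without Flox library 4), beside 49.3% to 50.5% of all genes in these fits. With the Y-linked covariate it was 21 (48.8%, beside 49.4%). Without WT library 2 and Flox library 4 together, a setting chosen after the values were seen, 32 were above 0. That is 74.4%, beside 50.2% of all genes in that fit. Tcap then missed the threshold and Myh6 passed it, with 0 members higher and 1 lower at an FDR below 0.05 by edgeR. At an unadjusted p below 0.05 there were 15 members. The share of all genes at either threshold in that fit is not given here. Across the 8 libraries 29 members varied by less than 1.2 times from lowest to highest, and 3 by more than 1.5 times: Mybphl (2.50), Ttn (2.28) and Myom2 (1.77).

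**Figure D5:**
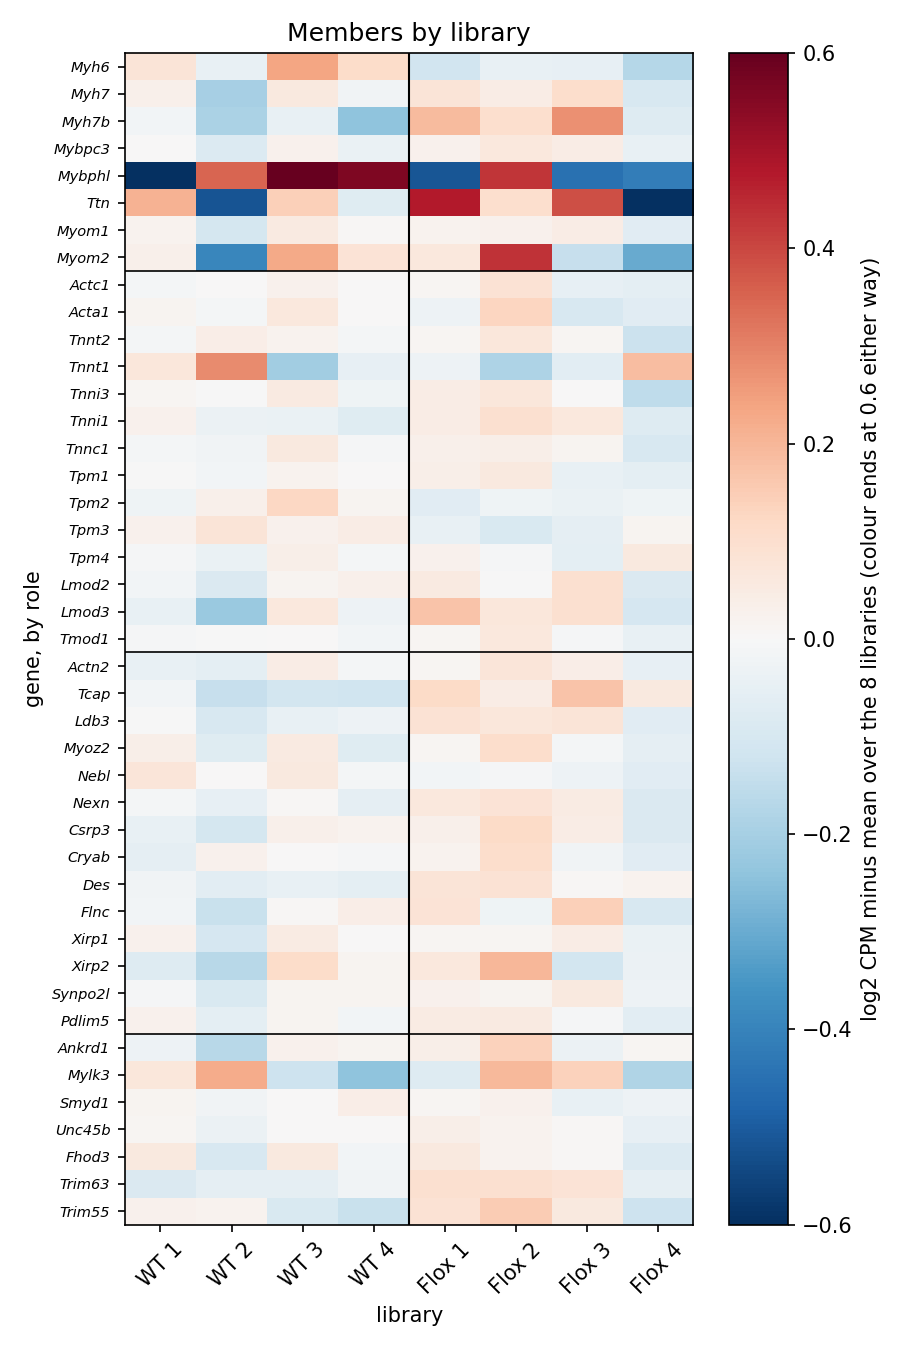
Log2 CPM of each member (rows, by role group) in each library (columns), as the deviation from its mean over the 8 libraries, from blue (lower) to red (higher). Flox library 4 and WT library 2 are mostly blue, and Flox library 2 is mostly red.

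Of 69 other sarcomere and muscle cytoskeleton genes, 64 were tested, none rose and 1 fell by edgeR's quasi-likelihood test (1.56%, beside 0.526% of all tested genes). At an unadjusted p below 0.05 by edgeR there were 9 higher and 7 lower of the 64. These are larger shares than the 5.13% higher and 5.41% lower of all tested genes. DESeq2 called 1 higher (Fhl2) and 3 lower (Csrp2, Fbxo32 and Lmod1), with 1.29% of all genes called. Their median log2 fold change was 0.002, with 34 above and 30 below 0. The one that fell was Csrp2, a LIM protein of smooth muscle and developing heart related to the member Csrp3. It measured 138, 141, 143 and 146 CPM in the WT and 122, 129, 126 and 126 CPM in Flox libraries, without overlap (-0.17, SE 0.0319, adjusted p = 0.0399 by edgeR's quasi-likelihood test). With 1 library left out the log2 fold change was -0.19 to -0.16, and with these fewer samples the call was lost unless the library left out was Flox library 4. The next by p were Lmod1, the smooth muscle leiomodin (-1.03, SE 0.223, adjusted p = 0.064 by edgeR), which had only 0.961 to 3.91 CPM, and Fbxo32, the ubiquitin ligase atrogin-1 (-0.24, SE 0.0554, adjusted p = 0.0892 by edgeR). At nearly the same p, Fhl2, a LIM protein that binds titin, had higher values in Flox libraries (0.22, SE 0.0532, adjusted p = 0.0946 by edgeR). The ventricular myosin light chains Myl2 and Myl3, partners of the heavy chains above, had log2 fold changes of 0.02 and -0.02.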

How the data were processed

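Poly(A) RNA from ventricles was sequenced, per the labels, from directional libraries made from 100 ng of total RNA, as single reads of 60 bases. The authors deposited expected counts per gene from RSEM 1.3.1, with cutadapt and GRCm38 also named in the submitters' processing notes, and Ensembl release 91 in the table's name. The strand setting of the counting and the aligner were not given in the sources used here. RSEM splits reads with several matching genes by estimation, and 18.1% of the deposited expected counts were not whole (tolerance 0.005). Of the 43 members 20 had such values in at least 1 library.

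Expected counts were rounded, filtered with filterByExpr and scaled by TMM factors. The quasi-likelihood test of edgeR 4.0.16 was applied (glmQLFTest after glmQLFit, two-sided, with no term but group, Benjamini-Hochberg over 15388 genes, FDR below 0.05) in R 4.3.3, and the script was tested on simulated data. CPM uses the TMM-scaled library size. SE was derived from the quasi-likelihood F. Positions and exonic lengths came from GENCODE M21, on the same build, which matched 53360 of 53465 identifiers. Isoform ratios were compared by exact permutation tests. Library totals of 16761763 to 24144272 expected counts limit precision for scarce genes. The replicates were described as 1 ventricle each, and p-values measure only the spread between these samples. The number of embryos in each library was not checked.

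The members, role groups and lists were chosen with earlier results of these data known. Every library is given for the 6 genes of the pairs, members with FDR below 0.05, the 5 members of smallest p in each direction and the member of highest CPM per kilobase in each role group, and for other sarcomere genes for the called ones. Ttn, Fhl2 and Nkx2-5 were described after their values were seen. In the list of other sarcomere genes 70 names were written, of which 1 was an older name, so 69 genes were counted. Alternatives were other scalings, filters and tests (DESeq2 1.42.0, limma voom 3.58.1), a replicate block, a Y-linked covariate, a correction for GC content and length, and leaving out libraries.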

Additional observations from a re-analysis of the deposited data

Results flagged for a closer look

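In 8 of 124 groups of 4 libraries examined, 1 library stood far from the other 3 by Dixon's criterion, where chance gives about 6.2. For Flox library 4 these were the lowest values of Tnnc1 (1491 CPM, the next being 1612), Ldb3 (775 CPM, the next 852) and Trim63 (163 CPM, the next 179), the members' share of expected counts (6.12%, the next 6.67%) and their summed level (60407 CPM, the next 66929.6). Flox library 2 had the highest Mybphl of its group (3.69 CPM, the next 2.06). WT library 2 had the lowest Unc45b (361 CPM, the next 371), and WT library 1 the lowest macrophage sum (67.4 CPM, the next 90.8).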

How the results depend on the processing

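Depth did not limit the abundant members, but Mybphl and Xirp2 rest on few counts, and Ttn on a wide spread. The number of members higher at an FDR below 0.05 was 1, and it became 0 with library totals alone, limma voom, the Y-linked covariate and the GC and length correction, 2 (Tcap and Myh7b) without a filter, with the likelihood ratio test and with the replicate block, and 3 (these and Des) with DESeq2. Leaving out 1 library gave 0 to 3. The number lower was 0, and 1 (Myh6) without a filter and with DESeq2, and 0 whichever library was left out. For the other sarcomere genes the number higher was 0, and 1 without a filter, with the likelihood ratio test, DESeq2, the replicate block or an FDR of 0.1 (0 to 2 leaving out 1 library). The number lower was 1, and 3 without a filter, with the likelihood ratio test, DESeq2 or an FDR of 0.1, and 0 with the Y-linked covariate (0 to 2 leaving out 1 library). Leaving out WT library 2 and Flox library 4 together, chosen after seeing the data, gave 0 members higher and 1 lower, and 2 other sarcomere genes higher and 2 lower. At an unadjusted p below 0.05 there were 5 to 15 members in these edgeR fits. The share of all genes called is stated above for some of these fits but not for those that left out libraries. Those counts therefore have no background beside them. The cause of the changes in count was not tested.

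The median log2 fold change of members, 0.026, was smaller than the SD of the libraries' medians within groups (0.0465). It was -0.00149 with the Y-linked covariate, and leaving out 1 library gave 0.00459 (without Flox library 2) to 0.0469 (without Flox library 4), with 0.00962 without WT library 2, 0.0171 without WT library 4 and 0.0142 without Flox library 1. The 3 isoform ratios kept their direction in every alternative run. The log2 difference was 0.232 to 0.28 for Myh7 to Myh6, 0.0625 to 0.1 for Tnni1 to Tnni3 and -0.0436 to -0.0137 for Acta1 to Actc1 when 1 library was left out. Tnni3 changed sign without WT library 3 (1.5e-07), without Flox library 4 (0.0291) and without the pair (0.0259), and Actc1 with the GC and length correction (0.00376), without WT library 3 (0.00206), Flox library 3 (0.01) or Flox library 4 (0.0128) and without the pair (0.013). Leaving out 1 library gave -0.0414 to 0.0291 for Tnni3 and -0.0349 to 0.0128 for Actc1.

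Same-numbered libraries of the groups had correlations of 0.0447 to 0.121, and other combinations of -0.0877 to 0.0195. Each library thus correlated best with its own number. Because the same-number values were not all above 0.1, the main test had no term for the number. Whether the numbers mark pairs was not tested. With the replicate block 93 genes passed in place of 81. With it the Myh7 to Myh6 difference was 0.254 by an exact sign-flip permutation test (p = 0.125, the smallest it can give), and the Tnni1 to Tnni3 and Acta1 to Actc1 differences were 0.0812 (exact p = 0.25) and -0.0249 (exact p = 0.375).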
